A study of Mus musculus with 6 samples.

Results

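Interleukin 6 family cytokines, their gp130 receptors and close targets of these receptors were followed in endothelial cells (ECs) sorted from metastatic mouse lungs after treatment with clodronate-liposomes or PBS-liposomes. The genes were 10 in number and were taken by name: the receptor chains Il6st (gp130), Osmr, Lifr, Il6ra and Il11ra1, the ligands Osm, Il6 and Lif, and the targets Pim1 and Cebpd. On the array, a gene is read by 1 or more probe sets, groups of short probes that together report 1 transcript. All probe sets that the platform annotation gave to 1 of these symbols alone were used. This gave 20 probe sets for 9 of the 10 genes, out of 18193 genes with a probe set of their own. The annotation used here held no such probe set for Il11ra1, which was not analysed here.

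NSG mice aged 6 to 8 weeks, an immunodeficient strain that lacks T, B and natural killer cells, carried lung metastases grown from tail vein-injected MDA-MB-231-LM2 (MDA-LM2), a lung-metastatic subline of human breast cancer cells. Liposomes loaded with clodronate, a compound toxic to the phagocytes that take them up, or with PBS were injected intravenously on days 14, 16 and 18, and lungs were harvested on day 20, a time point that the labels give as 3 weeks. CD31+ cells negative for CD45, CD11b, EpCAM, CD140a, CD140b and the GFP of the cancer cells were sorted from whole lungs, and RNA of 3 biological replicates per group was hybridized, 1 array each. Both groups carried metastases and received liposomes, and the number of mice behind each replicate was not given. Values are log2 signals, so that a difference of 1 is a doubling, and differences are clodronate-liposome minus PBS-liposome.

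The gp130 protein is the signal-transducing chain shared by the interleukin 6 cytokine family. Interleukin 6 first binds its own receptor chain Il6ra, which exists in membrane and soluble forms, leukemia inhibitory factor pairs gp130 with Lifr, and oncostatin M, a cytokine made mainly by macrophages, neutrophils and T cells, pairs it with Osmr. The assembled receptors activate JAK kinases and the transcription factor STAT3, and in ECs these cytokines are known for inducing acute phase genes and leukocyte adhesion molecules.

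The sorted cells carried the markers expected of endothelium. All 11 endothelial markers, among them Pecam1 and Cdh5, had mean signals between 12.00 and 13.84, and 0 of the 11 passed in limma or at an unadjusted p under 0.05. Macrophage markers gave far lower signals, and their array means overlapped between the groups. The mean over 16 macrophage markers was 8.61 to 8.998 on PBS-liposome arrays and 8.45 to 8.66 on clodronate-liposome arrays, and 13 of the 16 differences were negative. At an unadjusted p under 0.05 in limma, 5 of the 16 lay lower and 0 higher. Csf1r, the receptor for macrophage colony-stimulating factor, differed by -0.65 (adjusted p = 0.101). Its other probe sets differed by -1.24 and -0.17 (adjusted p = 0.0834 and 0.595, limma). Adgre1, which encodes F4/80, differed by -0.17 (adjusted p = 0.855). The mean over 10 pan-leukocyte markers was 8.23 to 8.59 against 8.01 to 8.15, with all 10 differences negative and with Ptprc, the gene of CD45, at -0.58 (adjusted p = 0.217). Of these 10, 4 lay lower and 0 higher at an unadjusted p under 0.05. The mean over 11 fibroblast and mural markers was 9.32 to 9.38 against 9.03 to 9.31, with 9 of the 11 differences negative. The treated arrays all lay below the controls in 37.5% of the macrophage, 40% of the pan-leukocyte and 18.2% of the fibroblast and mural markers. Over all 18193 genes, groups were apart in either direction in 16.2%, and 998 genes lay lower at an unadjusted p under 0.05. The part of leukocytes, fibroblasts and mural cells in the differences given here was not tested. Technical controls moved with the groups, except on 1 array. Hybridization controls averaged 12.11, 12.24 and 12.12 on PBS-liposome arrays and 11.91, 12.20 and 11.94 on clodronate-liposome arrays, and controls for 18S ribosomal RNA averaged 12.63, 12.39 and 12.56 against 13.01, 12.33 and 13.00. In both, clodronate-liposome replicate 2 lay with the PBS-liposome arrays or near them.

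No gp130 gene passed the threshold of an adjusted p under 0.05, but the receptor Osmr came closest and the targets Pim1 and Cebpd shared its sign. In limma, 0 of the 20 probe sets passed, where 0.306% of all 45037 probe sets did (0.238% lower and 0.0688% higher). At an unadjusted p under 0.05, 10 of the 20 probe sets lay lower after clodronate-liposome treatment and 0 lay higher, where 5.27% of all probe sets lay lower and 5.53% higher. These 10 belonged to 5 genes, and probe sets of 1 gene, read from the same RNA samples, are not independent. In 10 of the 20 the 3 clodronate-liposome arrays all lay below the 3 PBS-liposome arrays, which held for 8.04% of all probe sets, and in 0 they all lay above, which held for 7.97%. By role, groups were apart in 7 of 12 receptor probe sets, 3 of 4 target probe sets and 0 of 4 ligand probe sets. The genes were chosen with earlier results of these data known, so these shares only describe them.

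**Figure D1:**
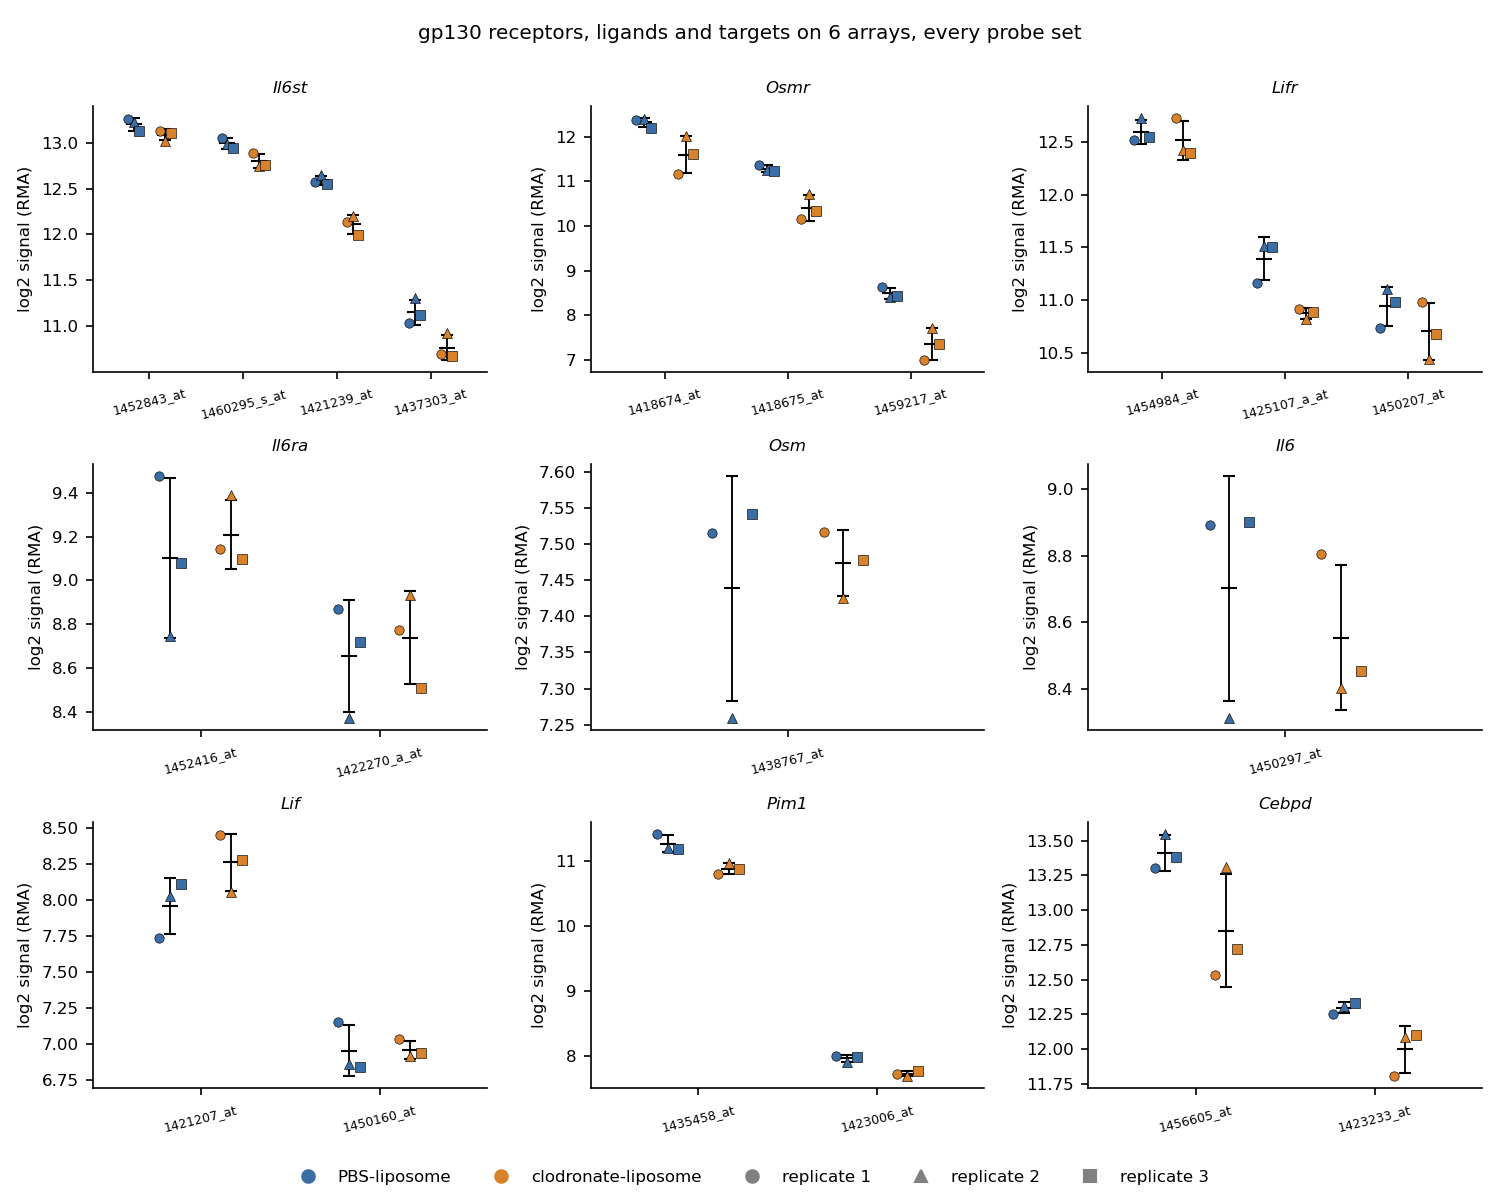
Log2 signal (y axis) of every probe set (x axis) of the 9 measured genes on 6 arrays, 1 panel per gene. Blue, PBS-liposome; orange, clodronate-liposome; circles, triangles and squares, replicates 1, 2 and 3; the bars give the mean and SD of each group (n = 3). All 3 Osmr probe sets show the orange points below the blue ones, whereas points of Il6ra, Osm, Il6 and Lif intermingle.

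The regions upstream of Osmr and Il6st are shown as examples. Every probe set of these receptor chains had a negative difference, as had those of Lifr, which is not shown, and of the targets Pim1 and Cebpd. Sequences are from RefSeq, build GRCm38.p6, and cover the 250 bases before the annotated start, read 5′ to 3′ on the strand of the gene. They lie at chr15:6874314-6874563 (minus strand) for Osmr and chr13:112463820-112464069 (plus strand) for Il6st. That of Socs3, a feedback inhibitor of gp130 and textbook STAT3 target, lies at chr11:117969367-117969616 (minus strand) and is given for comparison, with capitals marking the palindrome TTCNNNGAA that STAT proteins bind.

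Osmr: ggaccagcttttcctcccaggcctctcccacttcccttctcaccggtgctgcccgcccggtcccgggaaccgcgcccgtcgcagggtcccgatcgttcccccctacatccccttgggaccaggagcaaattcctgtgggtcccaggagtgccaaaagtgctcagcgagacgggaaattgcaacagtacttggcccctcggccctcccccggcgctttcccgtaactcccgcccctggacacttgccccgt

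Il6st: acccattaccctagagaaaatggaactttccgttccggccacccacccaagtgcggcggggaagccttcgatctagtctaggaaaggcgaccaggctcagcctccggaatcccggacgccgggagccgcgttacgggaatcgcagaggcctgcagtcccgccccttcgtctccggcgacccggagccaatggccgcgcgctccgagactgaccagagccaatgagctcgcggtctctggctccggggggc

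Socs3: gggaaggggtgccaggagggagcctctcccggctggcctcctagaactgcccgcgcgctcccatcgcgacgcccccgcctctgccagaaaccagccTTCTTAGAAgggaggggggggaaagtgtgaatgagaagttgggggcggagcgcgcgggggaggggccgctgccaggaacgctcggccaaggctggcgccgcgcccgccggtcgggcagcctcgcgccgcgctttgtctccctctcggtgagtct

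The STAT palindrome, which reads the same on both strands, occurred in 7.02% of 32851 such windows. It was found 1 time in the Socs3 window, with its first base at position -154 from the start, and 0 times in the windows of the 8 genes found in the RefSeq table. The windows of Bcl3, Lrg1, Selp and Cish, genes of the pathway described further on, held it 0 times as well. Osm and Cebpd had no entry in the table used, and no window was found for Myc, a target described further on.

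Osmr, the chain that makes gp130 a receptor for oncostatin M, showed the largest difference of the 9 genes. Its brightest probe set (1418674_at) read 12.38, 12.39 and 12.20 on PBS-liposome arrays and 11.17, 12.01 and 11.61 on clodronate-liposome arrays. The highest treated array therefore stayed below the lowest control array, by a margin smaller than the spread among the treated arrays. The difference was -0.72 (SE 0.20, 95% confidence interval -1.18 to -0.27), a ratio of 1.65 (adjusted p = 0.219, limma).

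The other Osmr probe sets separated the groups by wider margins. Probe set 1418675_at read 11.37, 11.25 and 11.23 against 10.15, 10.72 and 10.34, a difference of -0.88 (SE 0.15, adjusted p = 0.0768, limma). The dimmest one (1459217_at), whose mean lay under the median of all probe sets, read 8.64, 8.40 and 8.44 against 7.00, 7.72 and 7.36. Its difference of -1.14 (SE 0.18) is a ratio of 2.20 and had the smallest adjusted p of the 20 probe sets, 0.0615. In all 3 probe sets clodronate-liposome replicate 1 was the lowest of the 6 arrays and replicate 2 the highest of its group. In bulk samples, fewer cells that express a gene and less RNA per cell cannot be told apart.

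The call on Osmr changed with 1 array, with a filter on dim probe sets and with the way the variance was modelled. Of its 3 probe sets, 1 passed with dim probe sets left out and 2 passed with a trended and robust variance or with array weights, all 6 arrays being kept. Without clodronate-liposome replicate 2, the differences were -0.93, -1.04 and -1.32 from the brightest to the dimmest probe set, and the latter 2 passed the threshold (adjusted p = 0.0454 for each). With that replicate alone in the treated group, they were -0.31, -0.56 and -0.77, values given without a test because 1 array has no spread of its own. With the hybridization controls as a covariate they were -0.43, -0.68 and -0.92, and with the 18S controls -0.50, -0.72 and -0.97. The sign stayed negative under these settings, although the filter and the trended and robust variance cannot move a difference. The part of the technical controls in the difference was not tested further.

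**Figure D2:**
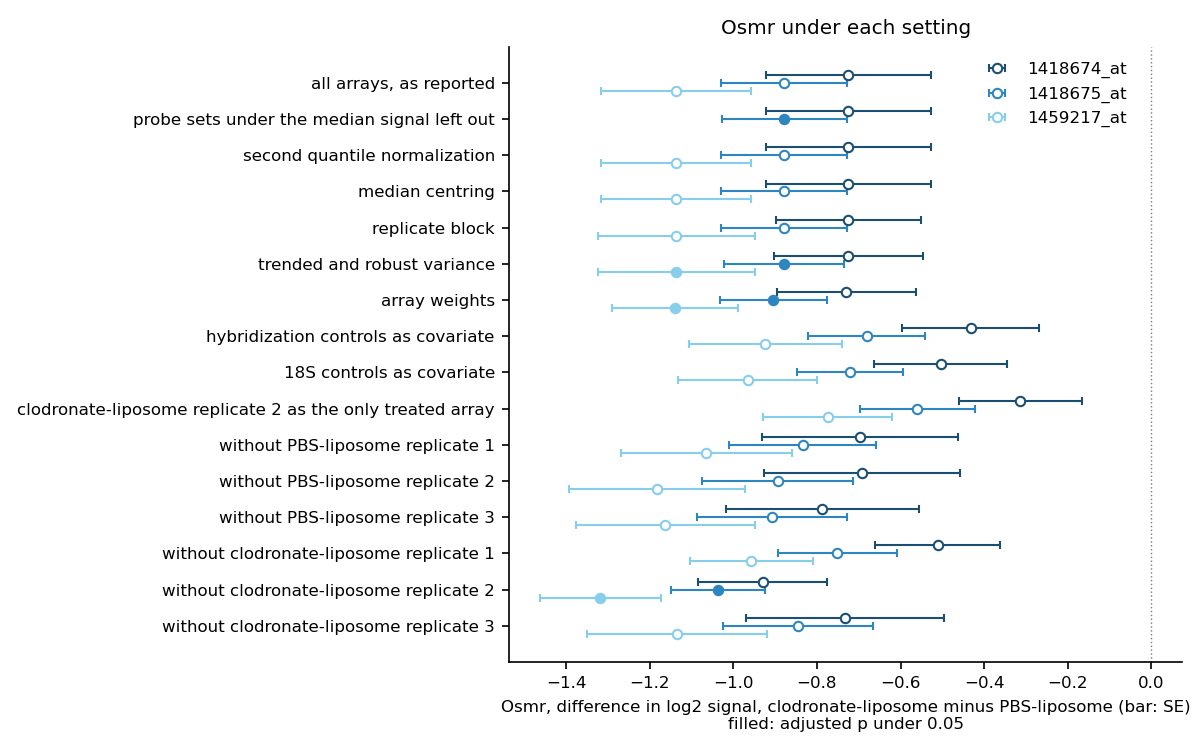
Difference of each of the 3 Osmr probe sets in log2 signal, clodronate-liposome minus PBS-liposome (x axis), under each setting (y axis), with bars for the SE. Filled points passed an adjusted p of 0.05. Every point lies left of 0, from -1.32 without clodronate-liposome replicate 2 to -0.31 with that replicate alone in the treated group. The dimmest probe set has no point where dim probe sets were left out.

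Il6st, which encodes gp130 itself, differed less than Osmr and not evenly over its 4 probe sets. Probe set 1421239_at read 12.58, 12.65 and 12.54 on PBS-liposome arrays and 12.14, 12.20 and 12.00 on clodronate-liposome arrays. The spread within each group was smaller than the gap between them, and the difference was -0.48 (SE 0.098, adjusted p = 0.126, limma). Probe set 1437303_at read 11.03, 11.31 and 11.12 against 10.70, 10.93 and 10.68 (-0.38, SE 0.12, adjusted p = 0.275, limma).

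The brighter Il6st probe sets showed smaller differences. The brightest (1452843_at) read 13.25, 13.23 and 13.12 against 13.13, 13.02 and 13.10, so that the groups overlapped, and differed by -0.12 (SE 0.094, adjusted p = 0.734, limma). Probe set 1460295_s_at differed by -0.19 (adjusted p = 0.526) with its groups apart. All 4 signs were negative, and the sizes ranged from 0.12 to 0.48. With clodronate-liposome replicate 2 alone in the treated group, the value of 1421239_at was -0.39 (1 treated array, no test).

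Lifr, the chain that pairs with gp130 for leukemia inhibitory factor, gave a divided picture. Probe set 1425107_a_at read 11.16, 11.52 and 11.50 against 10.91, 10.82 and 10.89, with the 3 treated arrays close together below all controls. Its difference was -0.52 (SE 0.12, adjusted p = 0.165, limma). The brightest probe set (1454984_at) read 12.52, 12.73 and 12.55 against 12.73, 12.42 and 12.40, with treated replicate 1 as high as the highest control, and differed by -0.08 (SE 0.12, 95% confidence interval -0.37 to 0.21). The remaining one, 1450207_at, differed by -0.24 (adjusted p = 0.672) with overlapping groups.

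Il6ra, the receptor chain specific to interleukin 6, had positive differences that were small beside the spread of its arrays. Its brightest probe set (1452416_at) read 9.48, 8.75 and 9.08 against 9.14, 9.39 and 9.10. The lowest and the highest of the 6 arrays were both PBS-liposome arrays, and the difference was 0.11 (SE 0.18, 95% confidence interval -0.32 to 0.53). The other probe set, 1422270_a_at, differed by 0.08 (adjusted p = 0.908, limma). Both Il6ra intervals include the -0.12 and -0.19 of the brighter Il6st probe sets, but none of the Osmr values.

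**Figure D3:**
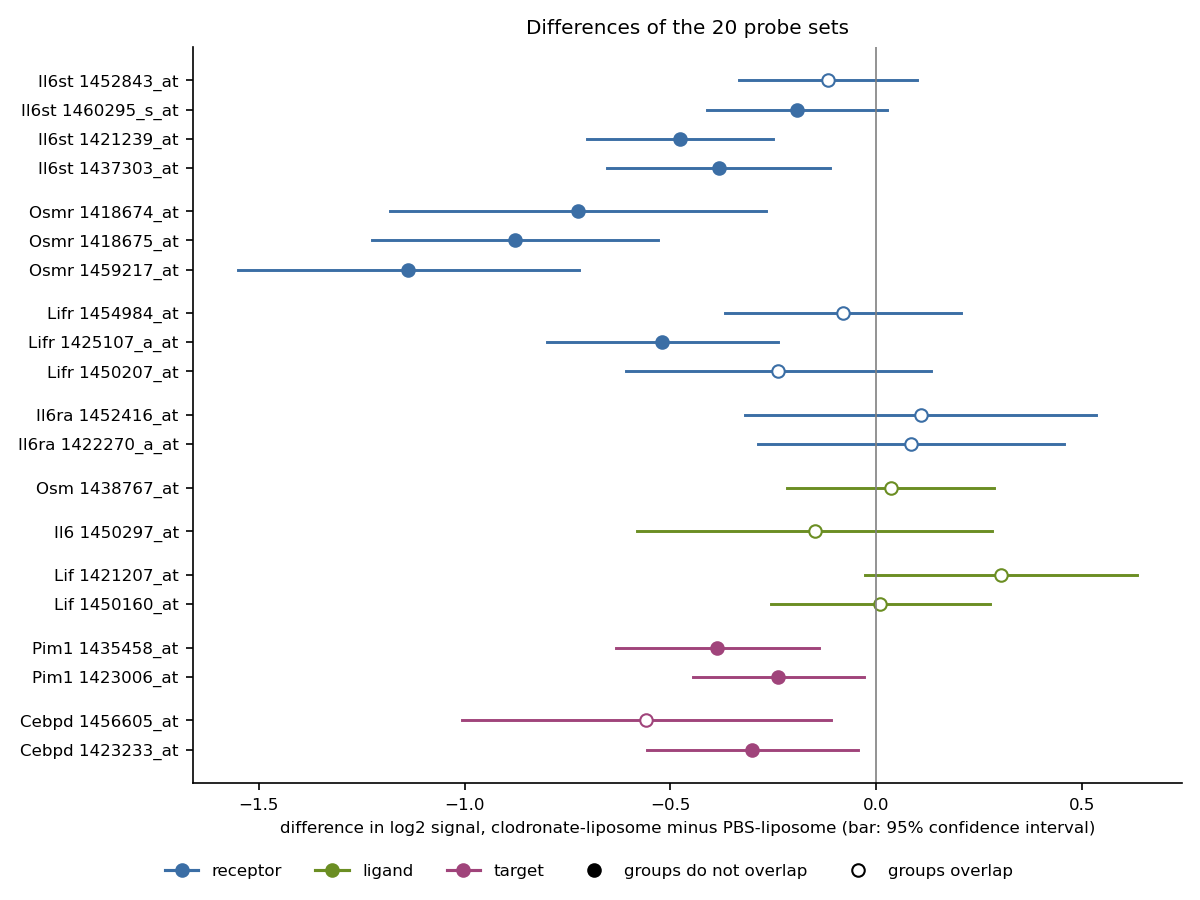
Difference in log2 signal, clodronate-liposome minus PBS-liposome (x axis), of the 20 probe sets (y axis) with 95% confidence intervals from limma. Colors mark receptors, ligands and targets, and filled points mark groups that do not overlap. The 3 Osmr probe sets lie farthest left, at -0.72, -0.88 and -1.14, and the ligands lie around 0.

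The 3 ligand genes had overlapping groups in each of their 4 probe sets. Il6, an inflammatory cytokine that ECs can secrete themselves, read 8.89, 8.31 and 8.90 against 8.80, 8.40 and 8.45 (-0.15, SE 0.19, adjusted p = 0.853, limma). Replicate 2 of either group was the lowest of its group. Osm read 7.52, 7.26 and 7.54 against 7.52, 7.43 and 7.48, all under the array median of about 8.13. Its difference was 0.03 (SE 0.11, 95% confidence interval -0.22 to 0.29), and its sign turned with the settings.

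Lif, the remaining ligand, had the only sizeable positive difference among the 9 genes. Its brighter probe set (1421207_at) read 7.73, 8.03 and 8.11 against 8.45, 8.05 and 8.27. Treated replicates 1 and 3 exceeded every control array, whereas replicate 2 lay within the controls. The difference was 0.30 (SE 0.14, adjusted p = 0.505, limma), and in the other probe set (1450160_at) it was 0.01 (SE 0.12). The means of both probe sets lay under the median of all probe sets.

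Both targets lay lower after clodronate-liposome treatment without passing the threshold. Pim1, a serine/threonine kinase that supports cell survival and is induced through STAT proteins, read 11.42, 11.21 and 11.19 against 10.80, 10.97 and 10.87 in its brighter probe set (1435458_at). The groups were apart, with a difference of -0.39 (SE 0.11, adjusted p = 0.223, limma). Its dimmer probe set (1423006_at), at 8.00, 7.90 and 7.99 against 7.73, 7.69 and 7.76, was also apart (-0.24, SE 0.090, adjusted p = 0.387, limma). Pim1 did not share the pattern in which treated replicate 2 lay nearest the controls in the dimmer probe set, where that replicate was the lowest.

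Cebpd, a C/EBP transcription factor of the acute phase response, had treated replicate 1 lowest and replicate 2 highest of the treated arrays in its brightest probe set, the order seen in Osmr. Its brightest probe set (1456605_at) read 13.30, 13.55 and 13.38 on PBS-liposome arrays and 12.53, 13.31 and 12.72 on clodronate-liposome arrays. Treated replicate 2 reached the lowest control, so that the groups overlapped by less than 0.01, and the difference was -0.56 (SE 0.19, adjusted p = 0.340, limma). The second probe set (1423233_at) read 12.26, 12.31 and 12.33 against 11.80, 12.08 and 12.10, a difference of -0.30 (SE 0.11, adjusted p = 0.376, limma). Without treated replicate 2 the brightest probe set differed by -0.79 (adjusted p = 0.0873), and with it alone in the treated group the value was -0.10 (1 treated array, no test). With the hybridization controls as a covariate it differed by -0.22 (adjusted p = 0.544, limma) and with the 18S controls by -0.30 (adjusted p = 0.382). Over the 14 probe sets of Osmr, Il6st, Lifr, Pim1 and Cebpd, treated replicate 2 was the highest of its group in 7, and over all 2373 probe sets that were lower at an unadjusted p under 0.05 in 40.8%.

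The other genes of the pathway were read from lists and are described by counts, each gene by its brightest probe set. Over all 18193 genes the median difference was -0.0031, 63 genes were lower and 16 higher past the threshold, 998 were lower and 826 higher at an unadjusted p under 0.05, and groups were apart in 16.2%. Of 13 further cytokines and receptors of the gp130 family, 8 were measured, with a median of 0.0062 and 0 past the threshold in limma (2 lower and 0 higher at an unadjusted p under 0.05). Those 2 were Il27ra, the chain that pairs with gp130 in the receptor for the cytokine Il27, and Ebi3, a subunit of that cytokine. Apart from Il27ra and Clcf1, these family genes had mean signals under the median of all probe sets. Il27ra read 10.20, 10.02 and 10.12 against 9.49, 9.91 and 9.69, with the groups apart (-0.41, SE 0.13, adjusted p = 0.279, limma). Ebi3 differed by -0.34 (adjusted p = 0.363), whereas Ctf1, the ligand cardiotrophin 1, differed by 0.22 (adjusted p = 0.474) and Il31 by 0.10 (adjusted p = 0.786).

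Among 19 measured genes of gp130 signal transduction, the median difference was -0.09, and 0 passed by the brightest probe set (4 lower and 1 higher at an unadjusted p under 0.05). The 4 were Socs2 and Cish, feedback inhibitors induced by STAT5, and the transcription factors Stat3 and Stat5a. The 1 higher was Socs3, whose other probe sets had the opposite sign. Cish read 12.67, 12.12 and 12.20 against 11.63, 11.27 and 11.93 (-0.72, SE 0.20, adjusted p = 0.234, limma), with all treated arrays below the controls. Socs2 differed by -0.53 (adjusted p = 0.151) and Stat5a by -0.36 (adjusted p = 0.356). Stat3, the main transcription factor of gp130, read 12.54, 12.47 and 12.47 against 12.19, 12.30 and 12.06 (-0.31, SE 0.10, adjusted p = 0.303, limma), and its other probe sets lay between -0.44 and -0.11. Jak1, the kinase that gp130 relies on most, differed by -0.13 in its brightest probe set and by -0.40 and -0.32 in the other ones (adjusted p = 0.679, 0.314 and 0.328, limma).

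Socs3, which binds gp130 and ends its signal, gave opposite answers in its 3 probe sets. Probe set 1416576_at fell from 12.43, 12.29 and 12.30 to 10.53, 10.68 and 10.84, a 3.15-fold lower signal (difference -1.66, SE 0.11, adjusted p = 0.00636, limma). Probe set 1456212_x_at, whose name marks probes that may match other sequences, read 12.62, 12.50 and 12.58 against 11.50, 11.97 and 11.79 (-0.81, adjusted p = 0.0656). The probe set with the highest mean (1455899_x_at), with the same mark, read 12.07, 11.91 and 12.13 against 12.30, 12.25 and 12.33 (0.26, adjusted p = 0.402). The groups were apart in all 3, in 2 with the treated arrays lower and in 1 with them higher. In the list counts Socs3 entered as higher, by 1455899_x_at. The PBS-liposome and clodronate-liposome means of that probe set, 12.04 and 12.29, were on average close to the 12.57 and 11.75 of 1456212_x_at.

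Of 24 target genes of gp130 and STAT3, 3 fell past the threshold by their brightest probe set and 0 rose, with a median of -0.23 over the 24. At an unadjusted p under 0.05 in limma, 10 lay lower and 2 higher, and 17 of the 24 differences were negative. Groups were apart in 10 of the 24 (9 lower, 1 higher). Socs3 counted as higher here, by its brightest probe set. Several of these genes also answer to other signals, such as NF-kB. Lrg1, a secreted glycoprotein of the acute phase, fell from 11.99, 11.76 and 11.92 to 10.04, 10.24 and 10.58, 3.04-fold (adjusted p = 0.0144). Myc, the growth-promoting transcription factor, fell from 10.99, 10.99 and 11.03 to 9.46, 9.87 and 9.55, 2.59-fold (adjusted p = 0.0144). Selp, the adhesion receptor P-selectin, fell from 11.73, 11.75 and 11.74 to 10.60, 11.04 and 10.48, 2.05-fold (adjusted p = 0.0428), and its other probe sets fell by 0.96 and 0.85 on the log2 scale. In these 3 genes treated replicate 2 lay below every control array, by 1.53, 1.11 and 0.69 for Lrg1, Myc and Selp.

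Other targets with small p values did not pass. Bcl3, an atypical IkB protein, read 10.53, 10.45 and 10.53 against 9.10, 9.46 and 9.75 (-1.06, SE 0.16, adjusted p = 0.0513, limma), with the groups well apart. Cebpb, a paralog of Cebpd, differed by -0.31 (adjusted p = 0.368) and by 0.07 in its other probe set. Il4ra, the interleukin 4 receptor chain, differed by -0.35 (adjusted p = 0.203), with other probe sets at -0.64 and 0.40. Serpina3n, a secreted protease inhibitor, differed by -0.90 (SE 0.34, adjusted p = 0.384, limma) with overlapping groups. Counting any probe set in place of the brightest one, 4 of the 24 targets fell past the threshold, Socs3 being the fourth, where 81 of all 18193 genes fell and 22 rose by the same count.

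**Figure D4:**
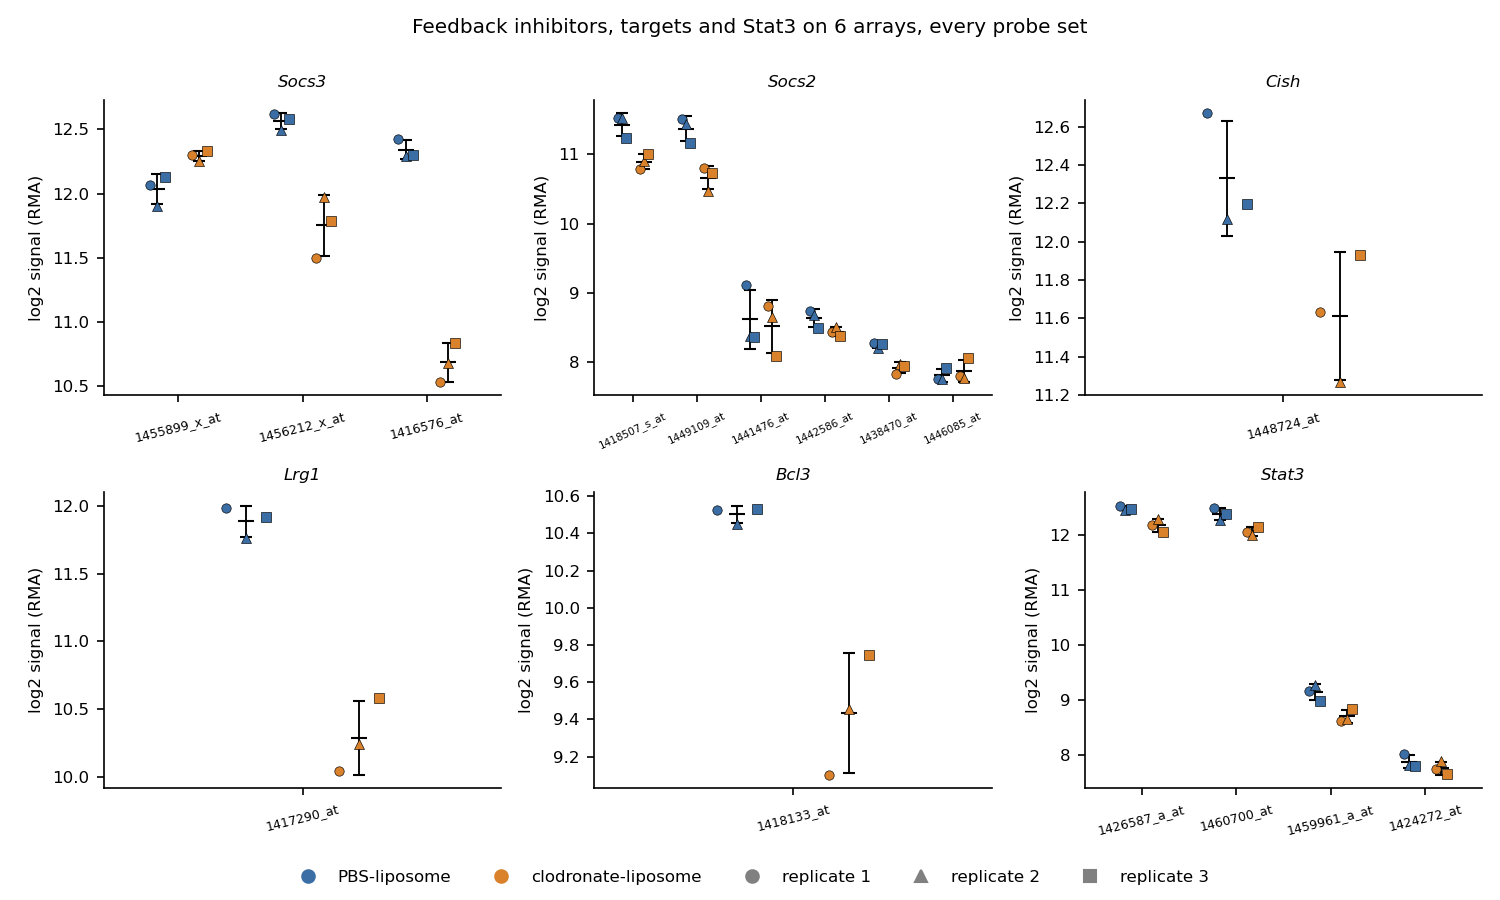
Log2 signal (y axis) of every probe set (x axis) of 3 feedback inhibitors (Socs3, Socs2, Cish), 2 targets (Lrg1, Bcl3) and Stat3 on 6 arrays. Blue, PBS-liposome; orange, clodronate-liposome; circles, triangles and squares, replicates 1, 2 and 3; the bars give the mean and SD of each group (n = 3). For Socs3, 1416576_at lies 1.66 lower and 1455899_x_at 0.26 higher on clodronate-liposome arrays.

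The PIM kinases and C/EBP factors other than Pim1 and Cebpd were also read by their brightest probe sets. Of 8 paralogs, 6 were measured, with a median of -0.09 and 0 past the threshold in limma (2 lower and 0 higher at an unadjusted p under 0.05). Groups were apart in 50% of the 6 (2 lower, 1 higher), against 16.2% of all 18193 genes. Pim3, the closest of them in function to Pim1, read 13.34, 13.34 and 13.33 against 13.18, 13.14 and 13.06, with the groups apart (-0.21, SE 0.089, adjusted p = 0.448, limma). Another Pim3 probe set (1451069_at) read 12.35, 12.05 and 12.02 against 11.69, 11.40 and 11.39 (-0.65, adjusted p = 0.127). Cebpg, a C/EBP factor without a transactivation domain, differed by 0.11 (adjusted p = 0.736) and the stress-induced Ddit3 by -0.08 (adjusted p = 0.873).

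**Figure D5:**
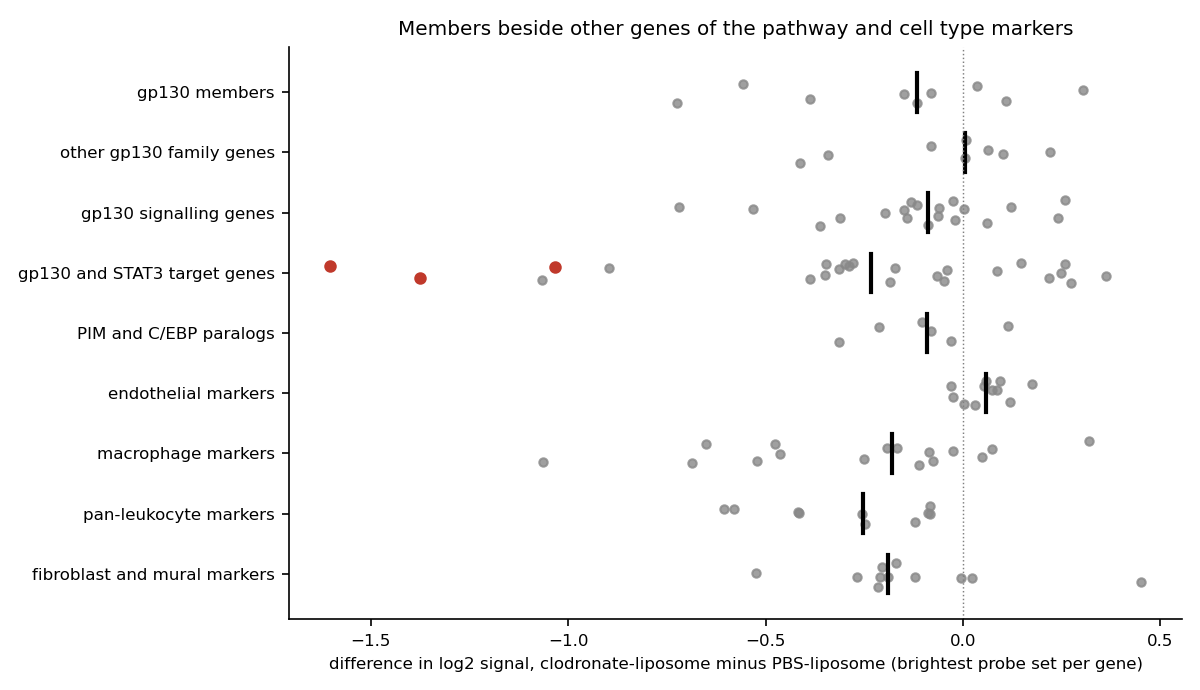
Difference in log2 signal, clodronate-liposome minus PBS-liposome, of each gene's brightest probe set (x axis), by gene list (y axis). Points are genes, red ones passed an adjusted p of 0.05 and black bars are medians. The 3 red points are the targets Lrg1, Myc and Selp, and the endothelial markers lie within 0.18 of 0.

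Osmr had the smallest p among the brightest probe sets of the 9 genes, and the genes most like it over the 6 arrays were listed as a description. The measure was the root mean square difference between log2 signals, each gene centred on its own mean. The nearest were Sele (0.0701), which encodes the endothelial adhesion receptor E-selectin, Gbp3 (0.0952), Map2k3os (0.0969), Igf2bp3 (0.0997) and Wdr54 (0.100). Sele read 11.66, 11.52 and 11.41 against 10.50, 11.33 and 10.90, with the same order of the treated arrays as Osmr, and differed by -0.62 (SE 0.20, adjusted p = 0.298, limma).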

How the data were processed

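Total RNA of 6 samples of sorted ECs was labelled from 1 ng and hybridized to Affymetrix mouse whole-genome arrays, 3 per group. The deposited values are log2 signals made by the authors with robust multiarray averaging, which corrects background, equalizes the arrays' distributions and summarizes probes, and were used as deposited. Of 45101 probe sets, 64 controls were removed and 45037 were tested without a filter. The annotation gave 34945 of these 1 symbol, 932 several and 9160 none. Groups came from the treatment labels. Differences were tested with limma 3.58.1 in R 4.3.3 (lmFit, eBayes, two-sided, no covariate, 4 residual and 3.90 prior degrees of freedom), following the empirical Bayes test in the study's methods, with Benjamini-Hochberg adjustment over 45037 probe sets and a threshold of 0.05. The steps were tested on simulated data. The p values measure the spread between 3 arrays per group, whose number limits precision.

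Genes and lists were chosen with earlier results of these data known. Named were all 10 genes, from each further list described the genes past the threshold and the 4 with the smallest p, from the signalling list also Jak1, Stat3 and Socs3, and the 5 genes most like Osmr. Neutrophil, fibroblast and mural, epithelial, mesothelial and platelet markers, read as further lists, had median differences of 0.0037, -0.19, 0.06, 0.49 and -0.10. Mesothelial markers averaged 8.83 on clodronate-liposome replicate 3 and 7.04 to 7.66 on the other arrays. A probe set of the epithelial marker Sftpc (1418639_at) read 10.80, 9.30 and 10.62 on PBS-liposome arrays and 8.46, 12.01 and 11.53 on clodronate-liposome arrays. Same-numbered arrays did not deviate together (correlations 0.075, 0.070 and 0.036).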

Additional observations from a re-analysis of the deposited data

How the results depend on the processing

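The negative sign of Osmr, Il6st, Lifr, Il6, Pim1 and Cebpd held under all 17 settings. The brightest probe set was read, except with the most variable probe set or the mean of a gene's probe sets. The filter, median centring, the replicate block and the trended and robust variance left each difference as it was, so no sign could turn there. A second quantile normalization hardly moved the differences. None of the named genes passed the threshold as read here. The number of the 20 probe sets past it (0) was 1 with dim probe sets left out (Osmr 1418675_at, adjusted p = 0.0450), 3 with a trended and robust variance (Osmr 1418675_at and 1459217_at, Il6st 1421239_at, adjusted p = 0.0351, 0.0367 and 0.0302), 2 with array weights (both Osmr, 0.0346 and 0.0271) and 0 to 2 with 1 array left out. Over all probe sets the count (138) was 244, 248 and 234 in these 3 settings, 0 with the hybridization controls as a covariate, 2 with the 18S controls, 0 with only replicate 2 kept in the clodronate-liposome group (replicate 2 alone, below, where the PBS-liposome arrays supply all the spread) and 6 to 73 with 1 array left out. With the replicate number as a block, 0 passed, Osmr had adjusted p values of 0.237, 0.149 and 0.137, and the differences did not move. The 10 probe sets at an unadjusted p under 0.05 became 5 with replicate 2 alone and 8 to 10 with 1 array left out, and the 10 with groups apart became 10 to 13.

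Osm reversed to -0.049 with the hybridization controls, -0.017 with the 18S controls and -0.013 with replicate 2 alone, and with 1 array left out ranged from -0.055 to 0.086. With 1 array left out, Il6ra ranged from -0.069 to 0.30, Osmr from -0.93 to -0.51, Cebpd from -0.79 to -0.40, Pim1 from -0.43 to -0.31, Il6st from -0.16 to -0.083, Lifr from -0.19 to -0.016, Il6 from -0.34 to -0.049 and Lif from 0.19 to 0.41. The median of the other family genes (0.0062) was -0.25 without dim probe sets, a filter that left only Il27ra and Clcf1 of them. It was 0.031 with the hybridization controls, 0.083 with each gene read by its most variable probe set and -0.040 to 0.026 with 1 array left out. That of the signalling genes (-0.09) was -0.062, -0.049 and -0.36 in these settings, -0.11 with array weights, -0.058 with the 18S controls, -0.053 with replicate 2 alone and -0.12 to -0.064 with 1 array left out. That of the targets (-0.23) was -0.29 with the most variable probe sets and -0.26 to -0.15 with 1 array left out. The causes were not tested.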
